A study of Tachysurus fulvidraco x Tachysurus vachelli with 9 samples.

Results

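The genes of the complement and coagulation cascades were examined in the posterior intestine of a hybrid catfish (female *Tachysurus fulvidraco* × male *Pseudobagrus vachellii*, the hybrid yellow catfish) around a simulated transport. A gene was included if its annotation listed the KEGG pathway for complement and coagulation cascades or if its product name contained complement C, complement component or complement factor. Of 26163 genes in the table, 168 met the rule, 143 by pathway, 46 by name and 21 by both. Classes followed a fixed list of cascade proteins by textbook origin. By this list 66 were typical of liver (liver-typical) and 18 of leukocytes, endothelium, stroma or epithelium (local), and 84 belonged to neither class. Genes off the list fell in neither class even where liver is a known source, as for *ambp* and *apoh*. The liver-typical class is thus not every liver gene among the 168. Of those 84, 17 carry complement in their name without being complement proteins, and 55 share the pathway annotation but are no established cascade component.

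The 9 libraries were each made from the posterior bowel of a single fish, 3 for each group. All fish came from the same hybrid stock and were kept in a recirculating system, and food was withheld before transport. Ctrl fish were untreated, Str fish were sampled after 16 h of shaking in oxygen-filled transport bags, and Rec fish went through the same 16 h and then 96 h in the control environment. By the paper's methods the sequenced Ctrl fish were those of the start of transport, and no control of the later time points was sequenced. Sampling time and time without food therefore cannot be told apart from transport, nor sampling time from recovery. The bag of each sequenced fish was not given in the sources used here, so p-values measure the spread between these individuals only. Deposited counts summed to 60670586 to 63899568 in Ctrl, 48605412 to 60279138 in Str and 54829614 to 73110636 in Rec. Levels are given as FPKM (fragments scaled by transcript length and library size), and changes as log2 fold changes from edgeR with their standard error (SE).

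Complement is a set of plasma and membrane proteins that marks and lyses microbes. Initiators such as C1q and mannose-binding lectin activate proteases that cleave C4 and C3, factors B and D amplify that cleavage, and C5b with C6, C7, C8 and C9 builds a pore in the target membrane. Factor H, factor I and C4b-binding protein restrain the cascade, and receptors such as CR1 bind its fragments. Coagulation is a parallel protease cascade that turns fibrinogen into fibrin, opposed by antithrombin, protein C, protein S and tissue factor pathway inhibitor. In vertebrates most of the circulating proteins are made by hepatocytes, whereas C1q is made mainly by macrophages and C7 also by stromal, endothelial and myeloid cells.

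Several cell type markers differed between groups and bear on bulk tissue, in which fewer cells of a type and less RNA per cell cannot be told apart. The summed FPKM of 12 enterocyte loci was 4520 to 10200 in Ctrl, 1940 to 2930 in Str and 10500 to 23000 in Rec, and that of 7 fibroblast loci was 421 to 511, 129.6 to 289.7 and 345 to 647. Enterocyte markers such as *fabp2* (95.5 to 2491 FPKM) were thus present in every library, but not every locus was. The gene *cubn* was listed at 0 FPKM in Str-1 and at 64.7 FPKM in Ctrl-2, and *amn* ranged from 0.0293 to 162 FPKM. The highest single values were those of *fabp6* (31.6 to 12067 FPKM) and LOC113649980 (672 to 5666 FPKM). LOC113654188 ran against the sum, at 0.931 to 2.28 FPKM in Str and 0.166 to 0.675 FPKM in the other groups. The library Ctrl-3 held 296 FPKM of 18 exocrine pancreas loci, against 4.83 to 25.2 FPKM in the others. Of 19 liver marker loci outside the cascades, 3 to 9 reached 1 FPKM per library, most in Str-3. The 19 loci summed to 27.7 to 99.8 FPKM in Ctrl, 63.2 to 182 in Str and 29.1 to 326 in Rec, and most of that came from *rbp4* (10.4 to 117 FPKM) and LOC113647919 (0.13 to 304 FPKM, highest in Rec-3). Transthyretin (*ttr*), a defining liver transcript, was at most 0.24 FPKM. The other 17 loci summed to 6.38 to 8.94 FPKM in Ctrl, 12.2, 8.46 and 60.3 FPKM across the Str libraries in order of their number, and 4.76 to 8.71 FPKM in Rec. In Str-3 an alpha-2-HS-glycoprotein-like gene (LOC113640083) alone held 37.2 FPKM. The summed FPKM of 11 acute phase loci was 759 to 1070 in Ctrl, 92.5 to 235 in Str and 211 to 975 in Rec. Most of it came from *apcs* (87.4 to 1064 FPKM). The gene *ptx3* ran the other way, at 1.13 to 3.58 FPKM in Ctrl and 4.08 to 4.23 FPKM in Str. For 7 erythrocyte loci the sums overlapped, at 270 to 1320, 81.3 to 404 and 80.7 to 1820 FPKM in Ctrl, Str and Rec. The part of these differences in the results was not tested.

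Most of the liver-typical genes were scarcely present in the intestine, whereas most of the local genes were readily measured. The median of the mean level over 9 libraries was 0.34 FPKM for the 66 liver-typical genes and 7.35 FPKM for the 18 local genes. A mean below 1 FPKM was found for 40 of 66 liver-typical genes and 2 of 18 local genes, and 8 genes of each class reached a mean of 10 FPKM. In no library did 20 of the 168 genes exceed 12 deposited counts, the equivalent of 3 read pairs, and 11 of these were liver-typical, 1 local and 8 in neither class. Complement C5 (*c5*), the source of the fragment that starts pore assembly, had a mean of 0.00166 FPKM, the C8 beta and gamma chains (*c8b*, *c8g*) had 0.0252 and 0.00715 FPKM, antithrombin (*serpinc1*), the main inhibitor of thrombin, had 0.075 FPKM and kininogen (*kng1*) had 0.0105 FPKM. The liver-typical transcripts that did stand out were a pair of C4 genes, a merged C3 locus, coagulation factors VII and X, a C4b-binding protein gene and a cluster of alpha-2-macroglobulin-like genes.

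**Figure D1:**
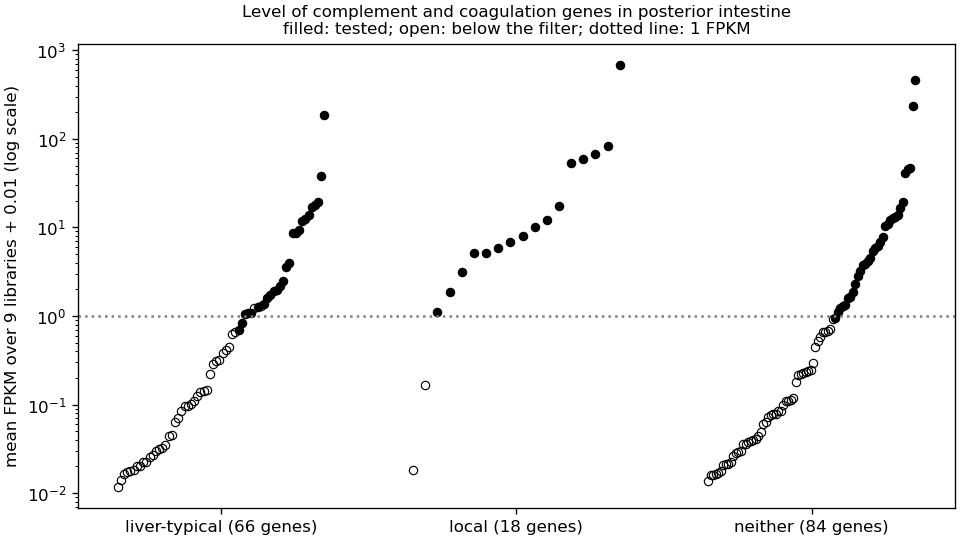
Mean FPKM over the 9 libraries (plus 0.01, log scale) for each of the 66 liver-typical, 18 local and 84 other genes, ordered by level within a class, with filled points for tested genes and open points for genes below the filter. The local genes lie mostly above the dotted line at 1 FPKM (16 of 18), and the liver-typical genes mostly below it (40 of 66).

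Tests covered genes that reached 1 FPKM in 3 or more libraries, as 75 of the 168 genes did (26 liver-typical, 16 local, 33 in neither class). Of these, *fga* alone reached 1 FPKM in the Str group only. Several others had fewer than 3 libraries at 1 FPKM outside Str. They were *c7*, *fgb*, *cfi*, *clec3a*, *sez6l2*, LOC113640104, LOC113646188, LOC113648337, LOC113661229 and LOC113661232. For all of these genes, passing the filter depended on their Str values. Str vs. Ctrl sets fish after 16 h of transport against untreated fish. Here 5 of the 75 genes rose and 1 fell at an adjusted p below 0.05. Of all 17244 tested genes, 2.78% rose and 3.1% fell. With all libraries edgeR called none of the 26 liver-typical genes. Of these 26, 8 had an unadjusted p below 0.05, beside 3980 of all 17244 tested genes. Among the 16 local genes 1 rose and 1 fell. The study's own thresholds were 1 or more on the log2 scale with an unadjusted p below 0.05, in DESeq. They were applied here to the edgeR values, so these are not the study's own counts. At these thresholds 13 genes were higher and 9 lower, beside 7.32% and 9.83% of all genes. Rec vs. Str sets fish after 96 h of recovery against fish at the end of transport. Here 2 genes rose and 10 fell, beside 5.03% and 4.11% of all genes. At the study's thresholds 3 were higher and 18 lower, beside 11.3% and 8.83%. The 10 that fell were 2 liver-typical genes, 2 local genes and 6 in neither class.

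The liver-typical count in Str vs. Ctrl was 3 higher without Rec-3, 2 higher without Rec-1 and 1 lower without Ctrl-2. It was 3 higher when only the 2 groups were fitted, and DESeq2 called 4 higher and 1 lower. Over all 17244 tested genes, 685 were called higher without Rec-3, 537 higher without Rec-1 and 158 lower without Ctrl-2. Fits of only the 2 groups called 666 of all genes higher, and DESeq2 called 1128 higher and 1412 lower. In Rec vs. Str the 2 lower liver-typical calls became 0 without Str-3 or Rec-2 and 6 without Rec-1. Over all tested genes the lower calls were 133 without Str-3, 201 without Rec-2 and 636 without Rec-1.

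These counts rested on few fish. Without Str-3 the Str vs. Ctrl count dropped from 6 to 1 and the Rec vs. Str count from 12 to 1, and without Ctrl-3 the Str vs. Ctrl count was also 1. In each of those fits the remaining gene was *c7*. Without Rec-2 the Rec vs. Str count was 2, and without Rec-1 it was 17. The calls over the whole table dropped as well, from 1014 to 129 in Str vs. Ctrl and from 1577 to 247 in Rec vs. Str without Str-3. They were 115 in Str vs. Ctrl without Ctrl-3. In Rec vs. Str they were 479 without Rec-2 and 1482 without Rec-1. Over the 75 genes the median log2 fold change was 0.37 in Str vs. Ctrl and -0.54 in Rec vs. Str, beside 0.00 and 0.03 over all tested genes, and over the 26 liver-typical genes it was 0.95 and -0.88. Of those 26, 23 had a positive value in Str vs. Ctrl (20 without Str-3) and 21 a negative value in Rec vs. Str, where scaling by library totals alone gave 25. The liver-typical genes that passed the filter only with their Str values are all among the 23. They are *fga*, *fgb*, *cfi*, LOC113640104, LOC113646188, LOC113648337, LOC113661229 and LOC113661232. All of them except *cfi* and LOC113661229 are among the 21. The filter can therefore favour values high in Str in these counts and medians. For the 16 local genes the medians were 0.12 and -0.29, with 9 positive and then 9 negative values. In Rec vs. Str the local median was 0.09 without Str-1 and 0.06 without Rec-1, and the liver-typical median was -0.55 without Rec-3. Both comparisons share the Str libraries, so a high value in Str enters both with opposite sign.

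**Figure D2:**
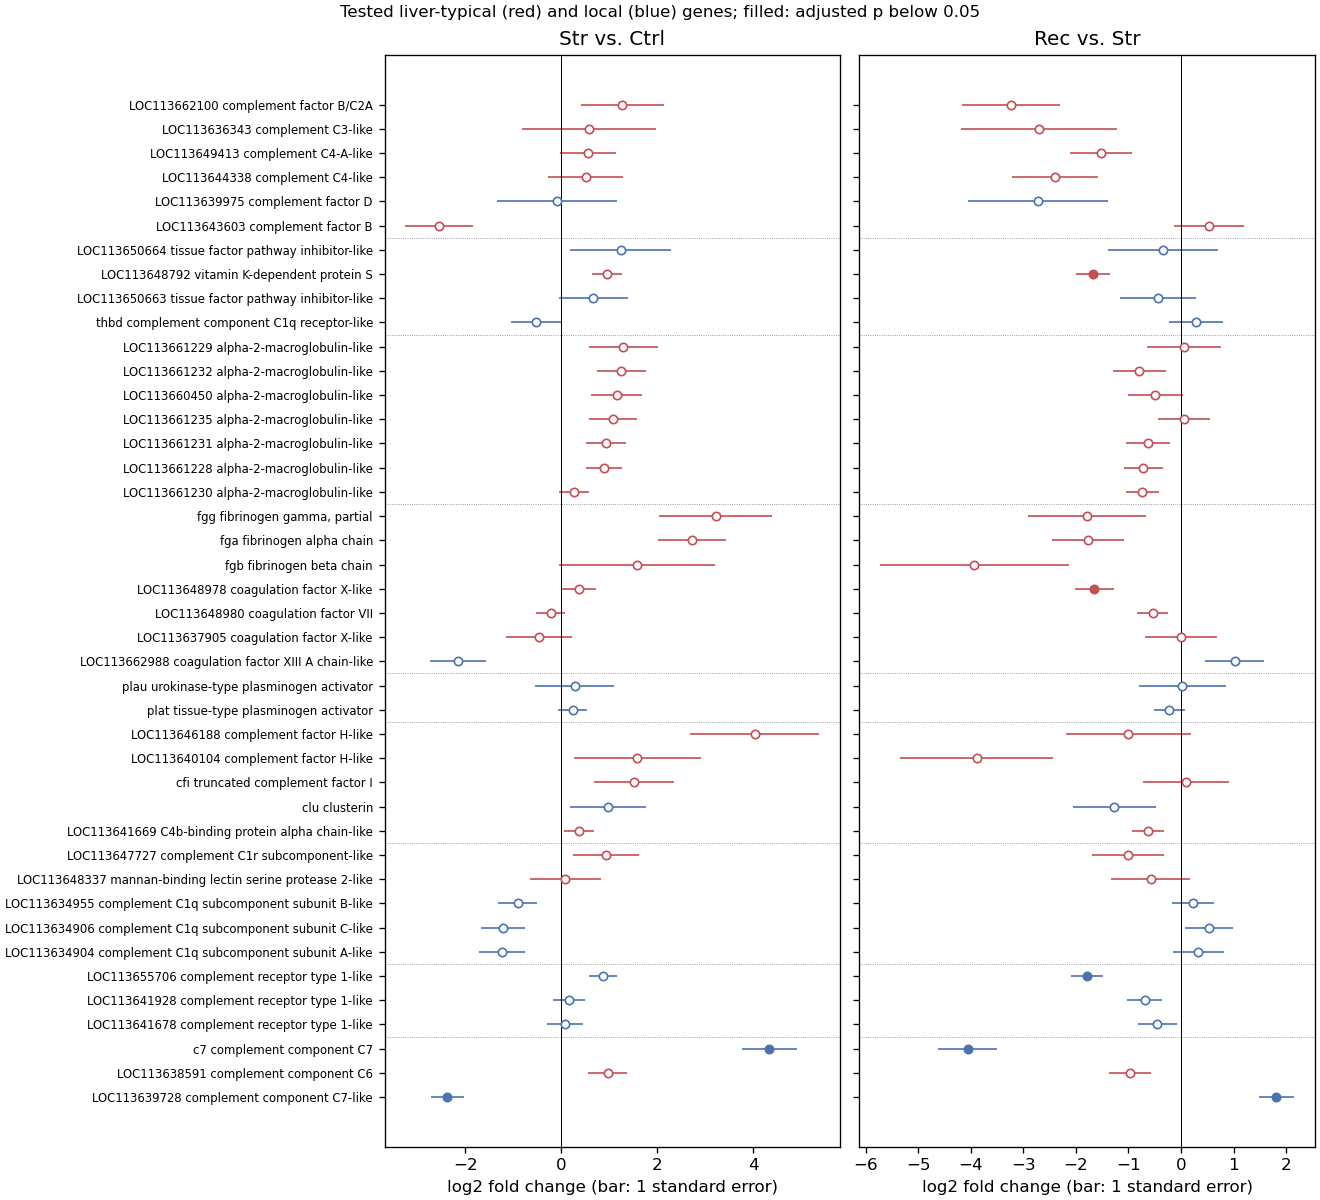
Log2 fold changes from edgeR (points) with 1 standard error (bars) of the 42 tested liver-typical (red) and local (blue) genes, grouped by role, in Str vs. Ctrl and in Rec vs. Str, with filled points for an adjusted p below 0.05. Only *c7* and LOC113639728 are filled in both panels, on opposite sides of 0.

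The clearest change lay in the terminal components, where a pair of C7 genes moved in opposite directions. The protein C7 joins the C5b-C6 complex and anchors it in the target membrane. The gene *c7* had 0.497, 0.803 and 1.16 FPKM in Ctrl, 17, 11.1 and 19.1 FPKM in Str and 1.34, 0.893 and 0.31 FPKM in Rec. All 3 Str libraries stood far above the other 6, whose ranges in Ctrl and Rec overlapped. The gene rose in Str vs. Ctrl (log2 fold change 4.34 ± 0.57 SE, adjusted p = 0.0077) and fell in Rec vs. Str (log2 fold change -4.06 ± 0.57 SE, adjusted p = 0.0082). It passed the test in each of the 9 fits that left out a library, with an adjusted p of at most 0.0401 and 0.0341 in the 2 comparisons. It also passed under each of the 9 other settings, which include a fit with no filter. In the main fit, *c7* passed the filter only with its Str values.

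The other locus, LOC113639728 (complement component C7-like), had 8.16, 15.2 and 17 FPKM in Ctrl, 2.45, 2.88 and 1.97 FPKM in Str and 6.76, 9.36 and 7.37 FPKM in Rec. All Str libraries lay below all Ctrl and Rec libraries. It fell in Str vs. Ctrl (log2 fold change -2.37 ± 0.35 SE, adjusted p = 0.011) and rose in Rec vs. Str (log2 fold change 1.81 ± 0.34 SE, adjusted p = 0.017). The first call was lost without Ctrl-3 or Str-3 (adjusted p up to 0.0528) and the second without Str-1, Str-3 or Rec-2 (up to 0.0687). As a share of the FPKM of both loci, *c7* made up 5.03% to 6.37% in Ctrl, 79.4% to 90.6% in Str and 4.04% to 16.5% in Rec. Their sum was 8.66 to 18.2 FPKM in Ctrl, 14.0 to 21.0 in Str and 7.68 to 10.3 in Rec, so the groups Ctrl and Str overlapped in the sum and not in the share. LOC113639728 spans positions 6 to 3700 at the start of its scaffold and its product is annotated as a low-quality protein, so it may be a partial gene. In mammals C7 is made by fibroblasts among other cells, and the fibroblast loci summed lower in every Str library than in every Ctrl library. Singly, *col1a2*, LOC113638083, LOC113653604, LOC113651596 and *pdgfrb* were lower in this way too, whereas *dcn* and *pdgfra* overlapped between these groups. The part of fibroblasts in the C7 result was not tested.

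On the scaffold that holds *c7* (positions 1643926 to 1656209, minus strand, genome build not given in the sources used here), LOC113638591 (complement component C6) lies 1346 bases away on the opposite strand (1621316 to 1642579). C6 is the protein that binds C5b before C7 does. Its levels were 4.26, 6.09 and 10.9 FPKM in Ctrl, 13, 8.29 and 17.9 FPKM in Str and 8.6, 5.53 and 4.03 FPKM in Rec, and the groups overlapped. It did not pass the test (log2 fold change 0.97 ± 0.41 SE, adjusted p = 0.19 in Str vs. Ctrl and log2 fold change -0.97 ± 0.41 SE, adjusted p = 0.17 in Rec vs. Str). Whether it differed from *c7* in its change was not tested.

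**Figure D3:**
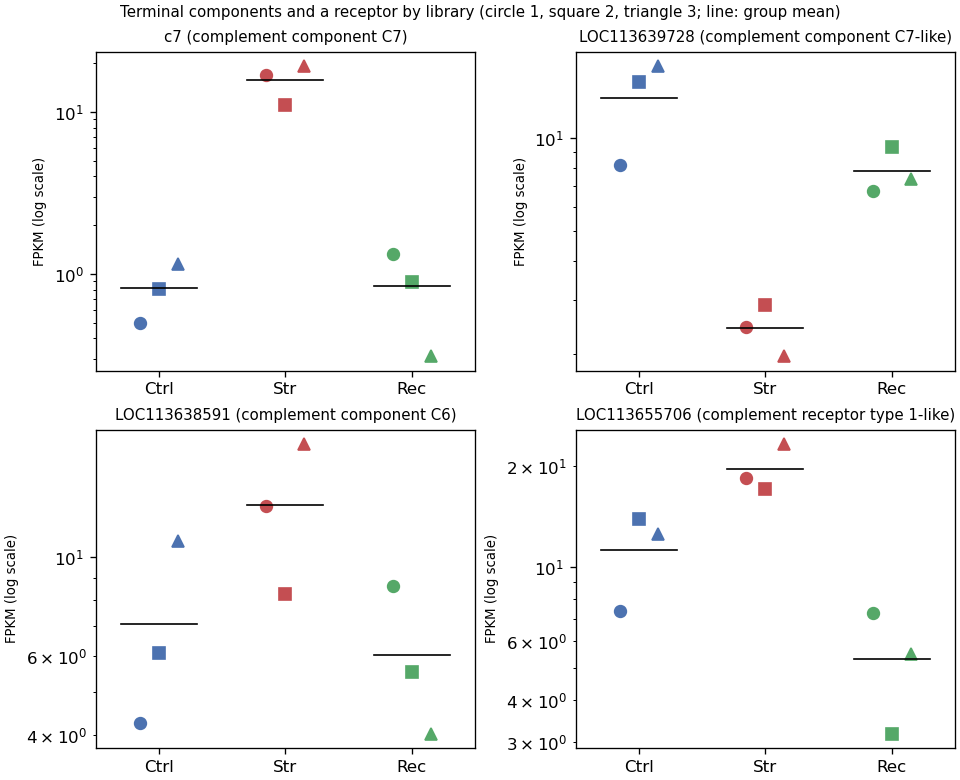
FPKM (log scale) in each of the 9 libraries for *c7*, LOC113639728 (C7-like), LOC113638591 (C6) and LOC113655706 (complement receptor type 1-like), with a line at each group mean. The Str libraries are highest for *c7* (11.1 to 19.1 FPKM) and lowest for the C7-like locus (1.97 to 2.88 FPKM).

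All 3 tested receptors were annotated as complement receptor type 1-like (CR1) genes, whose mammalian counterpart binds C3b and C4b. LOC113655706 had 7.37, 13.8 and 12.5 FPKM in Ctrl, 18.4, 17 and 23.2 FPKM in Str and 7.29, 3.17 and 5.5 FPKM in Rec. Every Str library exceeded every other library, and every Rec library lay below every Ctrl library. The gene fell in Rec vs. Str (log2 fold change -1.78 ± 0.30 SE, adjusted p = 0.013) and did not pass in Str vs. Ctrl (log2 fold change 0.87 ± 0.30 SE, adjusted p = 0.12). The call was lost only without Str-3 (adjusted p = 0.0557). The more abundant LOC113641928 ranged from 30.8 to 104 FPKM and LOC113641678 from 3.2 to 8.08 FPKM, and neither passed. LOC113641678 overlaps the merged factor H-like locus of LOC113641927 and LOC113641661 on the same strand, so reads of the overlap could be counted for either.

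Among the initiators, the 3 chains of C1q were the most abundant transcripts. C1q binds antibody and apoptotic cells and in mammals is a product of macrophages. The genes LOC113634904 (subunit A), LOC113634955 (subunit B) and LOC113634906 (subunit C) lie in a row on the same strand of 1 scaffold. Subunit C had 58.2, 108 and 218 FPKM in Ctrl, 69.1, 27.9 and 56.5 FPKM in Str and 58.7, 47.6 and 103 FPKM in Rec. The highest value was in Ctrl-3 and the lowest in Str-2, and Ctrl-1 lay within the range of Str. The log2 fold changes in Str vs. Ctrl were -1.23, -0.90 and -1.22 for A, B and C, and none passed (adjusted p = 0.17, 0.23 and 0.15).

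The ratio of C to B was 1.33 to 1.57 in Ctrl, 1.05 to 1.24 in Str and 1.43 to 1.47 in Rec, lower in every Str library than in the other 6. The ratio of C to A overlapped between the groups, at 1.37 to 1.57 in Ctrl, 1.22 to 1.84 in Str and 1.48 to 2.43 in Rec. The 3 chains summed to 138, 267 and 495 FPKM in Ctrl, 173, 77.5 and 135 FPKM in Str and 123, 108 and 243 FPKM in Rec. Over 6 macrophage loci without C1q, the sums were 244, 334 and 334 FPKM in Ctrl. They were 220, 256 and 202 in Str and 226, 254 and 258 in Rec. Ctrl-1 was thus lowest of its group in both measures. Most of each sum came from LOC113644583 and LOC113657532. Singly, LOC113657532, LOC113650173 and a merged locus (LOC113656273 and LOC113656292) were lower in every Str library than in every Ctrl library. LOC113644583 and *csf1r* overlapped between these groups. The gene *marco* ran the other way, at 3.9088 to 21.3501 FPKM in Ctrl and 19.9993 to 31.2557 FPKM in Str. The part of macrophages in the C1q values was not tested. The liver-typical initiating proteases were low: LOC113647727 (C1r-like), which cleaves within the C1 complex, ranged from 0.261 to 3.96 FPKM, and LOC113648337, a mannan-binding lectin serine protease 2 gene, from 0.327 to 2.57 FPKM. Neither passed in any comparison.

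**Figure D4:**
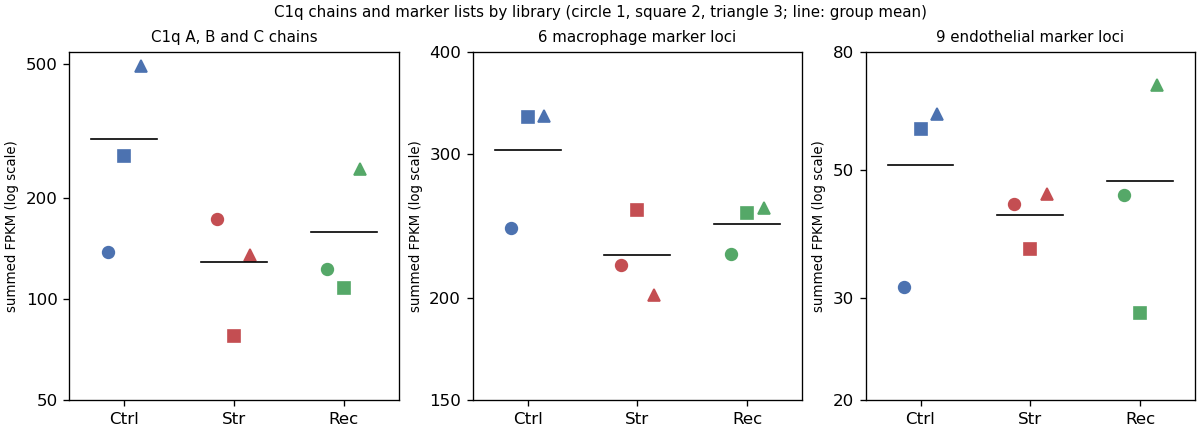
Summed FPKM (log scale) of the 3 C1q chains, of 6 macrophage loci and of 9 endothelial loci in each library, with a line at each group mean. The C1q sum spans 138 to 495 FPKM within Ctrl and 77.5 to 173 FPKM in Str.

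The central components C3 and C4 and the proteases that cleave or activate them showed wide differences between fish. LOC113649413 (complement C4-A-like), the most abundant liver-typical gene, had 80.1, 344 and 168 FPKM in Ctrl, 179.8, 134 and 503 FPKM in Str and 106, 59.3 and 98.3 FPKM in Rec. Str-3 was the highest library, and the Ctrl and Str ranges overlapped. LOC113644338 (complement C4-like) had 21.2, 61.9 and 49.8 FPKM in Ctrl, 53.1, 25.6 and 100.3 FPKM in Str and 24, 2.27 and 5.46 FPKM in Rec. Neither passed with edgeR, at adjusted p = 0.13 and 0.099 in Rec vs. Str, and both did with DESeq2 (0.0363 and 0.00892).

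A merged locus of 3 complement C3-like genes (LOC113636343, LOC113636373 and LOC113636345), C3 being the protein on which all activation routes converge, had 11.6, 20.9 and 14.4 FPKM in Ctrl, 20.6, 12.3 and 35 FPKM in Str and 9.63, 0.102 and 0.0732 FPKM in Rec. Rec-1 lay just below the Ctrl range, and Rec-2 and Rec-3 lay far below every other library. With all libraries the gene did not pass in edgeR (log2 fold change -2.70 ± 1.48 SE, adjusted p = 0.28 in Rec vs. Str), and it did in limma on log2(FPKM + 1) (adjusted p = 0.0357). Without Rec-1, with 2 Rec fish left, it fell relative to Str (log2 fold change -7.83, adjusted p = 0.00425) and also relative to Ctrl (-7.24, adjusted p = 0.0252). LOC113644338 also passed in Rec vs. Str without Rec-1 (-3.86, adjusted p = 0.0195).

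LOC113643603 (complement factor B), the precursor of the amplifying C3 convertase, had 33.6, 5.93 and 19.8 FPKM in Ctrl, 5.65, 2.9 and 1.9 FPKM in Str and 4.92, 2.31 and 7.19 FPKM in Rec. All Str libraries lay below all Ctrl libraries, Ctrl spread widely and the gene missed the threshold in Str vs. Ctrl (log2 fold change -2.55 ± 0.70 SE, adjusted p = 0.065), which it passed without Ctrl-2 (adjusted p = 0.0473) and with DESeq2 (0.00183). LOC113662100, annotated as factor B/C2A, had 0.612, 1.79 and 6.86 FPKM in Ctrl, 12.1, 2.17 and 6.12 FPKM in Str and 1.12, 0.22 and 0.706 FPKM in Rec, with Rec the lowest group on average (log2 fold change -3.24 ± 0.93 SE, adjusted p = 0.061 in Rec vs. Str). It passed without Ctrl-1 or Ctrl-3 (adjusted p = 0.0497 and 0.0495) and with DESeq2 (0.0017). LOC113639975 (complement factor D), the local protease that cleaves factor B, ranged from 0 to 4.51 FPKM and was listed at 0 in Rec-3.

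Regulators of the fluid phase were led by clusterin (*clu*), a secreted chaperone that blocks pore assembly. It had 661, 219 and 739 FPKM in Ctrl, 1773, 213 and 1216 FPKM in Str and 751, 187 and 299 FPKM in Rec. Library 2 was the lowest in each group, although no link between same-numbered fish is given in the sources used here, and no comparison passed. LOC113641669 (C4b-binding protein alpha chain-like), which helps to inactivate C4b, stayed within 11.1 to 30.5 FPKM. LOC113646188 (complement factor H-like) had 0.321, 0.103 and 0.144 FPKM in Ctrl, 0.943, 7.52 and 1.17 FPKM in Str and 0.574, 3.32 and 0.193 FPKM in Rec, with the largest value in Str-2, and a log2 fold change of 4.03 that did not pass in edgeR (adjusted p = 0.11) and did in DESeq2 (0.00672). A further factor H-like gene, LOC113640104, had 0.493, 1.46 and 1.95 FPKM in Ctrl, 4.57, 1.34 and 4.99 FPKM in Str and 0.653, 0 and 0.0358 FPKM in Rec. It did not pass in Rec vs. Str with all libraries (adjusted p = 0.13) and did without Rec-1 (adjusted p = 0.0201) and with DESeq2 (0.0182). The merged factor H-like locus of LOC113641927 and LOC113641661 ranged from 2.2 to 6.8 FPKM and did not pass. All 6 tested regulators had positive values in Str vs. Ctrl, beside a median of -0.002 over all tested genes, and edgeR with all libraries called none. Of the 6, LOC113640104, LOC113646188 and the factor I gene *cfi* passed the filter only with their Str values. The filter can therefore favour a positive sign in these genes.

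Among the coagulation genes, a factor X-like gene fell during recovery and another did not pass. The fibrinogen chains had their highest means in Str without passing the test in the fit of all libraries. Factor X is the protease that forms thrombin from prothrombin. LOC113648978 (coagulation factor X-like) had 17.1, 25.4 and 23.7 FPKM in Ctrl, 23.6, 18.6 and 40.0 FPKM in Str and 10.3, 8.25 and 5.07 FPKM in Rec. The Ctrl and Str ranges overlapped, and all Rec libraries lay below both. It fell in Rec vs. Str (log2 fold change -1.65 ± 0.37 SE, adjusted p = 0.029), a call lost without Str-1, Str-3 or Rec-2 (adjusted p up to 0.101). The call was also lost with the replicate block and when only the 2 groups were fitted (adjusted p up to 0.0748). The locus overlaps LOC113648980 (coagulation factor VII) on the same strand, so reads of the overlap could be counted for either gene. Factor VII ranged from 5.66 to 18.2 FPKM and did not pass (log2 fold change -0.54 ± 0.30 SE, adjusted p = 0.29 in Rec vs. Str). Another factor X-like gene, LOC113637905, had 4.53, 1.75 and 1.87 FPKM in Ctrl, 2.41, 2.75 and 0.89 FPKM in Str and 1.47, 2.85 and 1.07 FPKM in Rec. Its groups overlapped, and it did not pass (log2 fold change 0.0016 ± 0.69 SE, adjusted p = 0.999 in Rec vs. Str). LOC113658035, annotated as similar to a snake venom prothrombin activator, had 9.43, 12.4 and 13.2 FPKM in Ctrl, 15.6, 12.8 and 24.4 FPKM in Str and 11.2, 4.9 and 3.9 FPKM in Rec. It did not pass in Rec vs. Str with all libraries (log2 fold change -1.28 ± 0.41 SE, adjusted p = 0.083) and did without Rec-1 (adjusted p = 0.0214) and with DESeq2 (0.0303).

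Fibrinogen, the precursor of fibrin, is built from alpha, beta and gamma chains. The gene *fga* had 0.131, 0.246 and 0.452 FPKM in Ctrl, 1.86, 1.59 and 1.67 FPKM in Str and 0.189, 0.382 and 0.847 FPKM in Rec. All Str libraries exceeded the other 6, and the gene narrowly missed the threshold in Str vs. Ctrl (log2 fold change 2.73 ± 0.71 SE, adjusted p = 0.055). It passed without Rec-1 or Rec-3 (adjusted p = 0.0405 and 0.0408), when only the 2 groups were fitted (0.036), with counts divided by 4 (0.0482), with limma on log2(FPKM + 1) (0.0384) and with DESeq2 (0.00166). Since *fga* entered the test only through its Str values, these passes are no separate support for a rise in Str. The gene *fgg* had 1.83, 1.89 and 2.57 FPKM in Ctrl, 8.42, 27.9 and 19.6 FPKM in Str and 14.3, 0.318 and 0.847 FPKM in Rec. Str exceeded Ctrl in every library, Rec-1 lay within the Str range and Rec-2 and Rec-3 lay below Ctrl (log2 fold change 3.21 ± 1.18 SE, adjusted p = 0.14 in Str vs. Ctrl). The gene *fgb*, a neighbour of *fga* on the opposite strand, had 0.159, 2.73 and 0 FPKM in Ctrl, 0.789, 3.44 and 3.69 FPKM in Str and 0.222, 0.0138 and 0.262 FPKM in Rec. Without Rec-1, *fgg* passed in Str vs. Ctrl (log2 fold change 3.21, adjusted p = 0.0152) and in Rec vs. Str (-4.93, adjusted p = 0.0105). In Str vs. Ctrl it also passed when only the 2 groups were fitted (adjusted p = 0.0168) and with DESeq2 (0.0118).

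LOC113662988 (coagulation factor XIII A chain-like), a transglutaminase that crosslinks fibrin and is counted as local, had 2.98, 9.76 and 15.8 FPKM in Ctrl, 1.47, 1.67 and 2.78 FPKM in Str and 4.9, 1.45 and 5.2 FPKM in Rec. Str lay below Ctrl in every library, and the gene missed the threshold (log2 fold change -2.14 ± 0.58 SE, adjusted p = 0.062), which it passed without Ctrl-1 or Rec-2 (adjusted p = 0.0444 and 0.0488) and with DESeq2 (0.00438). The thrombocyte loci summed to 3.48 to 14.1 FPKM in Ctrl, 2.87 to 6.17 in Str and 2.71 to 11.1 in Rec, so they overlapped between the groups.

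**Figure D5:**
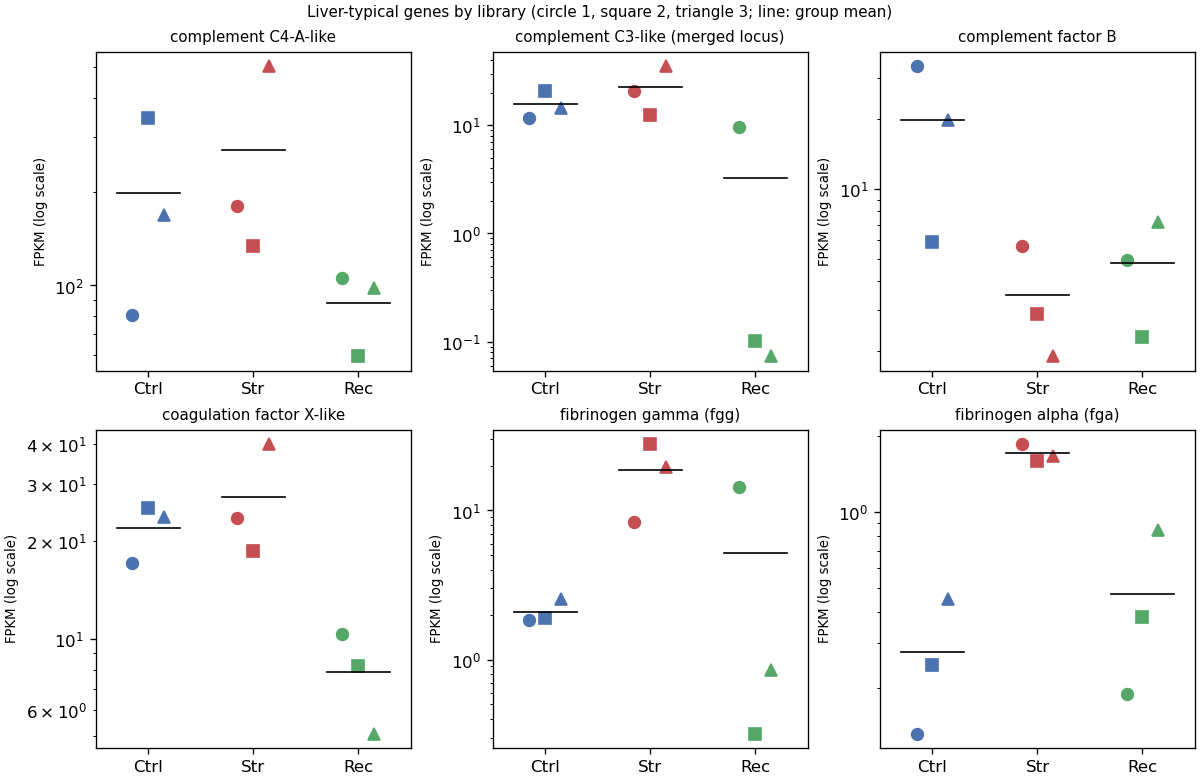
FPKM (log scale) in each library of 6 liver-typical genes (C4-A-like, the merged C3-like locus, factor B, factor X-like, *fgg* and *fga*), with a line at each group mean. For C3 and *fgg* the Rec-1 circle (9.63 and 14.3 FPKM) lies far above Rec-2 and Rec-3.

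A pair of anticoagulant genes fell in Rec vs. Str. LOC113648792 (vitamin K-dependent protein S), the cofactor of activated protein C, had 2.23, 3.77 and 4.63 FPKM in Ctrl, 5.06, 8.19 and 6.17 FPKM in Str and 2.21, 1.65 and 1.78 FPKM in Rec. Str exceeded all other libraries, and Rec lay below Ctrl. It fell in Rec vs. Str (log2 fold change -1.68 ± 0.32 SE, adjusted p = 0.017), a call lost without Str-2, Str-3 or Rec-2 (adjusted p up to 0.0572), and did not pass in Str vs. Ctrl (adjusted p = 0.1, and 0.0471 with DESeq2). LOC113653750 (protein Z-dependent protease inhibitor-like), whose mammalian counterpart inhibits factor Xa, had 4.25, 6.6 and 6.08 FPKM in Ctrl, 9.33, 7.26 and 11.8 FPKM in Str and 4.29, 1.34 and 1.35 FPKM in Rec and also fell (log2 fold change -1.91 ± 0.47 SE, adjusted p = 0.038). This call was lost without any of the 3 Str libraries, Rec-2 or Rec-3 (adjusted p up to 0.125). It was also lost with no filter, with the replicate block and when only the 2 groups were fitted (adjusted p up to 0.0901).

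The pair of tissue factor pathway inhibitor-like genes, LOC113650663 and LOC113650664, overlap on the same strand, ranged from 5.38 to 40.6 FPKM and from 0.8 to 17.5 FPKM, and did not pass. The gene with the symbol *thbd* (thrombomodulin), named in its product field as a C1q receptor-like protein, ranged from 4.85 to 19.2 FPKM. The plasminogen activators that start fibrin breakdown were low, with *plat* at 2.46 to 4.18 FPKM and *plau* at 0.242 to 2.42 FPKM, and neither passed in any comparison.

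The alpha-2-macroglobulin-like genes, which encode broad protease traps of plasma, were the largest family with 18 loci, 11 of them on 1 scaffold. Copies in such a cluster can share reads, so values for single loci are uncertain. All 7 tested loci had positive log2 fold changes in Str vs. Ctrl, from 0.27 to 1.29, beside a median of -0.002 over all tested genes. The direction was the same under every scaling and every left-out library. With all libraries edgeR called none of the 7. LOC113661229 and LOC113661232 passed the filter only with their Str values, which can favour a positive sign. Without Rec-3, LOC113661228 and LOC113661235 passed (adjusted p = 0.0486 and 0.0484), and LOC113661228 also when only the 2 groups were fitted (0.0438). The most abundant, LOC113661230, had 15.1, 21.7 and 17.5 FPKM in Ctrl, 18.9, 15.7 and 28.6 FPKM in Str and 16.2, 9.04 and 9.76 FPKM in Rec, and LOC113661228 had 9.37, 11.1 and 9.31 FPKM in Ctrl, 17.7, 16.4 and 19.5 FPKM in Str and 15.5, 9.02 and 5.18 FPKM in Rec. Ctrl and Str overlapped in the first and not in the second. The third, LOC113660450, ranged from 1.03 to 4.52 FPKM. In Rec vs. Str 5 of the 7 were negative, and all 7 when libraries were scaled by their totals.

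All remaining calls of edgeR with all libraries belonged to genes that share the pathway annotation without an established role in either cascade. Of 21 tested, 4 rose in Str vs. Ctrl, beside 2.78% of all tested genes. In Rec vs. Str 5 fell and 1 rose, beside 4.11% and 5.03% of all tested genes. The gene *dcbld2*, a membrane protein with a discoidin domain like those of coagulation factors V and VIII, had 6.95, 8.63 and 8.61 FPKM in Ctrl, 27.3, 13.9 and 24.4 FPKM in Str and 9.27, 6.32 and 8.71 FPKM in Rec. It rose (log2 fold change 1.49 ± 0.27 SE, adjusted p = 0.018) and then fell (log2 fold change -1.33 ± 0.27 SE, adjusted p = 0.022). The gene *prrg4*, a transmembrane protein with the gamma-carboxyglutamic acid domain of clotting factors, had 27.3, 27.2 and 33.6 FPKM in Ctrl, 67.9, 89.3 and 93.4 FPKM in Str and 17.3, 27.4 and 39.2 FPKM in Rec and also rose (log2 fold change 1.56 ± 0.31 SE, adjusted p = 0.024) and fell (log2 fold change -1.47 ± 0.31 SE, adjusted p = 0.025). In both genes every Str library exceeded every other library.

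LOC113635957, an EGF-like repeat and discoidin domain gene (EDIL3-like), whose mammalian counterpart is a secreted integrin ligand, had 6.01, 6.93 and 5.87 FPKM in Ctrl, 22.8, 10.6 and 25.9 FPKM in Str and 5.15, 3.51 and 7.04 FPKM in Rec. It rose (log2 fold change 1.69 ± 0.35 SE, adjusted p = 0.027) and fell (log2 fold change -1.82 ± 0.35 SE, adjusted p = 0.018). The gene *svep1*, a large extracellular matrix protein with sushi domains, had 1.13, 2.24 and 1.95 FPKM in Ctrl, 5, 2.47 and 4.27 FPKM in Str and 1.09, 0.999 and 1.46 FPKM in Rec, and it rose (log2 fold change 1.21 ± 0.30 SE, adjusted p = 0.048) and fell (log2 fold change -1.62 ± 0.31 SE, adjusted p = 0.017). Str again lay above the other groups in both genes. LOC113642754, annotated as *svep1*-like and more abundant, had its lowest mean in Str. It had 13.5, 26.2 and 37.2 FPKM in Ctrl, 5.67, 11.9 and 11.7 FPKM in Str and 11.1, 9.02 and 22.2 FPKM in Rec. Its log2 fold change in Str vs. Ctrl was -1.29 ± 0.42 SE. It did not pass in edgeR (adjusted p = 0.10) and did in DESeq2 (0.0322). Of the 4 calls in Str vs. Ctrl, those of *prrg4*, *svep1* and LOC113635957 each held in 1 of the 6 fits that left out a Str or Ctrl library and that of *dcbld2* in 2, with adjusted p up to 0.151. That of *svep1* was also lost in 6 of the 9 other settings (adjusted p up to 0.162). The 4 calls in Rec vs. Str each held in 3 of 6, with adjusted p up to 0.0869. When only the 2 groups were fitted, those of *prrg4*, *dcbld2* and LOC113635957 were lost (adjusted p = 0.0728, 0.0706 and 0.0526). That of *svep1* held in all 9 other settings.

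The largest fold change of all 75 genes in Rec vs. Str was in LOC113647532 (proteoglycan 4-like), whose mammalian counterpart is a lubricant of joints. It had 5.36, 4.45 and 9.89 FPKM in Ctrl, 86.7, 40.7 and 221 FPKM in Str and 5.91, 0.61 and 0.187 FPKM in Rec. Str was the highest group in every library, with Str-3 above the others. It fell in Rec vs. Str (log2 fold change -5.58 ± 1.26 SE, adjusted p = 0.029) and missed the threshold in Str vs. Ctrl (log2 fold change 4.19 ± 1.18 SE, adjusted p = 0.07), which it passed without Rec-1 or Rec-3 (adjusted p = 0.0223 and 0.0295), when only the 2 groups were fitted (0.0187), with limma on log2(FPKM + 1) (0.0206) and with DESeq2 (0.000132). LOC113657885 (transmembrane protease serine 9-like) had 3.6, 3.56 and 5.3 FPKM in Ctrl, 1.67, 0.671 and 0.424 FPKM in Str and 3.41, 3.77 and 6.16 FPKM in Rec and was the only gene of this kind to rise in Rec vs. Str (log2 fold change 2.36 ± 0.53 SE, adjusted p = 0.03). The first call was lost without Str-1, Str-3 or Rec-2 (adjusted p up to 0.0887), and the second without Str-2, Str-3, Rec-2 or Rec-3 (up to 0.0878). Both were also lost when only the 2 groups were fitted, the first at an adjusted p of 0.0708. The second was lost with the replicate block too (adjusted p up to 0.0754 in these 2 settings). In Str vs. Ctrl, LOC113657885 did not pass with all libraries (log2 fold change -2.11 ± 0.53 SE, adjusted p = 0.05) and did without Str-1 (-2.85, adjusted p = 0.0354) and in 5 other settings (adjusted p from 0.00276 to 0.0494).

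The most abundant gene with the annotation only, LOC113640665 (MAM and LDL-receptor class A domain-containing protein 1-like), ranged from 28 to 650.2 FPKM, with its lowest values in Str-1 and Rec-2, and did not pass. The gene *clec3a*, a C-type lectin domain protein, had 0.403, 0.291 and 0.876 FPKM in Ctrl, 1.6, 1.8 and 4.34 FPKM in Str and 1.09, 0.53 and 0.687 FPKM in Rec. Every Str library exceeded every other library. It did not pass in Str vs. Ctrl with edgeR (log2 fold change 2.36 ± 0.62 SE, adjusted p = 0.058) and did with DESeq2 (adjusted p = 0.00362). This gene passed the filter only with its Str values.

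Of the 17 genes named for complement only, 8 were tested and edgeR with all libraries called none. The complement C1q-like gene LOC113650251 had 814, 604 and 585 FPKM in Ctrl, 169.5, 552 and 140.1 FPKM in Str and 619, 546 and 124 FPKM in Rec, with Str-2 just below the Ctrl range and inside that of Rec. The gene *c1qbp*, whose product is found mainly in mitochondria, had 21.2, 21.9 and 34 FPKM in Ctrl, 84, 58.2 and 61.1 FPKM in Str and 20.6, 26.8 and 86.4 FPKM in Rec. Str exceeded Ctrl in every library, Rec-3 was as high as Str, and the gene did not pass with all libraries (log2 fold change 1.46 ± 0.46 SE, adjusted p = 0.098). Without Rec-3 it passed in Str vs. Ctrl (1.46, adjusted p = 0.0204) and in Rec vs. Str (-1.30, adjusted p = 0.0407), and in Str vs. Ctrl it passed with DESeq2 (0.0221) and when only the 2 groups were fitted (0.0222). The gene *c1qtnf1*, a secreted protein with a C1q-type domain, had 11.7, 15.8 and 18.3 FPKM in Ctrl, 7.31, 5.4 and 9.7 FPKM in Str and 13.1, 8.29 and 26.8 FPKM in Rec and did not pass in edgeR (log2 fold change 1.17 ± 0.37 SE, adjusted p = 0.079 in Rec vs. Str), though it did in DESeq2 (adjusted p = 0.0256).

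The comparison of what remained after recovery was Rec vs. Ctrl, in which edgeR called none of the 75 genes, beside 0.0% of all tested genes higher and 0.0% lower. At an unadjusted p below 0.05 there were 10 of the 75 genes and 1002 of all tested genes, and DESeq2 called 115 genes over the whole table and none of the 75. At the study's thresholds 2 genes were higher and 5 lower, beside 2.49% and 1.52% of all genes. The 5 lower were LOC113648978 (factor X-like, log2 fold change -1.28 ± 0.37 SE, adjusted p = 0.81), LOC113643603 (factor B, log2 fold change -2.02), LOC113644338 (C4-like, -1.89), LOC113653750 (protein Z-dependent protease inhibitor-like, -1.10) and LOC113656793 (sushi domain-containing protein 1-like, -1.43). The 2 higher were LOC113646188 (factor H-like, 3.03) and LOC113661235 (alpha-2-macroglobulin-like, 1.13). For *c7* the log2 fold change was 0.28 (standard error 0.51), and for LOC113639728 it was -0.55 (standard error 0.33).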

How the data were processed

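RNA was sequenced from posterior intestine, 1 library per fish. The authors trimmed reads with Cutadapt 1.9 and mapped them to a *T. fulvidraco* genome whose build was not given in the sources used here. Their processing notes list HISAT and StringTie, without versions. The authors deposited FPKM values and estimated counts per gene (expected counts, whole numbers in which a read pair was usually worth 4). Members, classes and marker lists were chosen with earlier results of these data known.

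Groups were taken from the labels. The deposited counts of genes reaching 1 FPKM in 3 or more libraries (17244 of 26163) were fitted with edgeR 4.0.16 in R 4.3.3 (TMM scaling, group as the only factor, all 9 libraries, quasi-likelihood F-test, two-sided), and p-values were adjusted by Benjamini-Hochberg over all genes tested. A call is an adjusted p below 0.05. Standard errors were taken from the F statistic as the fold change over its root. FPKM values were printed as deposited. The code was tested on simulated data. Alternatives were RLE scaling, library totals, DESeq2 1.42.0, limma 3.58.1 on log2(FPKM + 1) and log2(FPKM + 0.1), no filter, counts divided by 4, a replicate block, only the 2 groups compared and leaving out each library. Counts of liver-typical genes without the alpha-2-macroglobulin-like loci were added after the values were seen.

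Genes named with values were those called in any comparison, the up to 3 most abundant tested genes of each role, those past the study's thresholds in Rec vs. Ctrl and the 10 with the largest fold change in Str vs. Ctrl among those with at least 1 FPKM in the higher group. Other members were chosen for naming after their values were seen. Counts set the precision: a floor of 12 counts (3 read pairs) was used for detection, which covers counting error only.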

Additional observations from a re-analysis of the deposited data

How the results depend on the processing

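Among the 75 tested genes, DESeq2 made more calls than edgeR, 19 against 6 in Str vs. Ctrl and 20 against 12 in Rec vs. Str. Over all 17244 tested genes it also made more, 2540 against 1014 and 3193 against 1577. Fits of only the 2 groups compared gave 10 and 5, beside 1363 and 677 over all tested genes. Leaving out each library in turn gave 1 to 11 calls in Str vs. Ctrl, 1 to 17 in Rec vs. Str and 0 to 1 in Rec vs. Ctrl. Over all tested genes these fits gave 115 to 1423, 247 to 1525 and 0 to 2 calls. With the replicate number as a block, calls were 5, 9 and 0, beside 623, 893 and 0 over all tested genes. No pairing by number was seen: same-numbered libraries of different groups had correlations of their deviations from -0.26 to 0.19, above 0.1 in 1 of 9 pairs. Differently numbered libraries had -0.31 to 0.30. With 3 libraries per group these values cannot exclude a link between same-numbered fish. All other settings gave counts within 1.5 times the main ones. Of the single-gene fold changes given in the text, the log2 fold change of c7 in Rec vs. Ctrl (0.28, not called) changed sign, to -0.0026 with limma on log2(FPKM + 1) and -0.0712 on log2(FPKM + 0.1), and ranged from -0.14 to 0.70 with a library left out; the cause was not tested. The 2 liver-typical calls in Rec vs. Str did not include an alpha-2-macroglobulin-like locus, so the liver-typical counts of calls were the same without those loci (0 of 19 in Str vs. Ctrl, 2 of 19 in Rec vs. Str, with all libraries in edgeR). The median of all genes in Rec vs. Str turned negative with library totals (-0.08) and with limma on log2(FPKM + 1) and log2(FPKM + 0.1) (-0.09 and -0.12). Scaling by library totals moved it to -0.14 in Rec vs. Ctrl, and limma on log2(FPKM + 0.1) to -0.19. With 3 fish per group, a gene that misses the threshold is not shown to be unchanged.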
